A study of Homo sapiens with 4 samples.

Results

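The human genome holds 4 tropomyosin genes, TPM1, TPM2, TPM3 and TPM4, and their expression was compared in LNCaP prostate cancer cells with and without the KDM5 inhibitor CPI-455. They were taken by symbol, 4 of the 60675 genes in the count files, and all 4 passed the filter on low counts. The family was proposed with the values of this same comparison in view, and its members were thus selected on their counts and fold changes in it, so those differences are given as a description, without a test.

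Tropomyosins are coiled-coil proteins that pair into dimers, join end to end and lie along the actin filament. They set which other proteins reach the filament: tropomodulins cap tropomyosin-coated filaments, caldesmon and troponin bind to them, and the isoform on a filament affects the action of cofilin and myosin II. Each gene makes several isoforms through alternative promoters and exons. TPM1 and TPM2 are best known for their striated and smooth muscle isoforms and also make cytoskeletal ones, whereas TPM3 and TPM4 supply many of the cytoskeletal isoforms of non-muscle cells. Epithelial tumour cells often carry less of the long TPM1 and TPM2 isoforms than the cells they come from.

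LNCaP is an established androgen-responsive line from a prostate cancer metastasis. All cells were kept in hormone-depleted medium and received the synthetic androgen R1881 at 1 nM for 72 h, in both groups, so no library without androgen entered the comparison. One group, called vehicle here, received R1881 and solvent, and the other received R1881 and 50 µM CPI-455, with 2 libraries in each. The sources give the vehicle and its concentration differently, as ethanol in the sample labels and DMSO in the study's account of the RNA sequencing. The methods also name ethanol as the solvent of R1881 and DMSO as that of CPI-455. The methods call the replicates biological, while the labels only number them. The p-values below rest on the spread between these 2 libraries of each group, with each gene's variance estimate moderated by those of all genes tested.

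The libraries held 19623553 and 20690819 counted fragments with vehicle but 9522920 and 5401588 with CPI-455, so treatment and depth cannot be told apart by design, and an analysis on libraries thinned to equal depth was run beside the main one. Across the transcriptome, 7454 of 17600 genes tested passed a false discovery rate (FDR) of 0.05 and a 2-fold change, 3756 lower and 3698 higher with CPI-455. The luminal prostate markers KLK3, KLK2, TMPRSS2, HOXB13, KRT8 and KRT18 were detected in all 4 libraries. KLK3, which encodes prostate-specific antigen, measured 404 and 357 CPM (a gene’s counts divided by the library total and the library’s TMM scaling factor) in the vehicle libraries and 107 and 136 CPM under CPI-455, and the luminal keratin KRT8 80.9 and 89.6 CPM against 39.1 and 42.2 CPM. KLK3, HOXB13 and KRT8 were called lower. KLK2, TMPRSS2 and KRT18 passed the FDR but not 2-fold and were not called, TMPRSS2 and KRT18 being lower with CPI-455. KLK2 went the other way, from 84.2 and 64.4 CPM with vehicle to 108 and 111 CPM with CPI-455.

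The 4 genes lie on 4 chromosomes and have close coding sequences. In GRCh38 with the Ensembl 83 annotation used for the counts, TPM1 (ENSG00000140416) lies at chr15:63042632-63071915 on the plus strand. TPM2 (ENSG00000198467) lies at chr9:35681992-35691020 on the minus strand, TPM3 (ENSG00000143549) at chr1:154155304-154194648 on the minus strand and TPM4 (ENSG00000167460) at chr19:16067021-16103005 on the plus strand. Over the long coding sequences, between 75.6% (TPM1 with TPM4) and 79.9% (TPM2 with TPM3) of aligned bases were identical. The stretch below, of 90 coding bases just after the start codon within the first coding exon of the long isoforms, shows for TPM1, TPM2 and TPM4 how a sequenced fragment could be assigned to one gene rather than another. Bases that differ from TPM1 are in capitals, and the sequences were read 5′ to 3′ from GRCh38 at the coding positions of GENCODE 44, at chr15:63042836-63042925 (plus strand), chr9:35689722-35689811 (minus) and chr19:16067631-16067720 (plus).
TPM1: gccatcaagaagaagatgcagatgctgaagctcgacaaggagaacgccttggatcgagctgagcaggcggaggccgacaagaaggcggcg
TPM2: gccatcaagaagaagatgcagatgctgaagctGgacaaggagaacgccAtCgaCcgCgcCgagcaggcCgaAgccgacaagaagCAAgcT
TPM4: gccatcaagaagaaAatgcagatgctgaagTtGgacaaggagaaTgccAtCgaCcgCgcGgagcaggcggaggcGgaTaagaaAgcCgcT

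In this stretch TPM2 differed from TPM1 at 12 of 90 bases and TPM4 at 14. TPM1 and TPM2 shared their first 32 bases without a mismatch, the longest identical run of any pair shown. Over all exons, windows of 32 bases were searched in the genome on both strands. Of the TPM2 windows 0.369% were not unique and 0.342% also occurred in another tropomyosin gene. The share found in another member was 0.0744% for TPM1, 0.0253% for TPM3 and 0.0728% for TPM4. Fragments that map to several places were not counted, so exact sharing among the 4 genes touched under 1% of their exon windows. Copies elsewhere mattered more for TPM3 and TPM4, of whose windows 17.7% and 23.6% were not unique in the genome, with 4.31% and 3.95% found in their own pseudogenes.

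TPM2 was the gene that separated the groups most. Its raw counts were 424 and 365 in the vehicle libraries and 4379 and 2424 in the CPI-455 libraries. Although the CPI-455 libraries were the shallower ones, both held several times more TPM2 fragments in absolute number. Scaled for depth, TPM2 measured 20.1 and 16.7 CPM with vehicle and 492 and 481 CPM with CPI-455, with no overlap between groups. The group means were 18.4 ± 2.38 CPM and 487 ± 8.34 CPM (SD, n = 2 each), and the fitted log2 fold change, vehicle over CPI-455, was -4.73 (SE 0.14), which is 26.5-fold higher with CPI-455. Of the 17600 genes tested, 1.41% had a larger fitted rise.

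TPM1, the other member known for muscle isoforms, was higher with CPI-455 by a much smaller step. The vehicle libraries held 847 and 872 counts and the CPI-455 libraries 572 and 342, or 40.1 and 39.9 CPM against 64.3 and 67.8 CPM. The groups did not overlap. The log2 fold change was -0.72 (SE 0.13), 1.65-fold higher with CPI-455 and short of 2-fold. In the genome 22.7% of its exon bases are shared with 2 genes on record there, the antisense gene TPM1-AS and ENSG00000259627. Counting did not use strand and left out fragments that fell on more than 1 gene. TPM1-AS itself held 6, 0, 10 and 28 counts, in the order vehicle 1, vehicle 2, CPI-455 1 and CPI-455 2, and ENSG00000259627 held none. On these few counts TPM1-AS was called higher with CPI-455 (log2 fold change -4.42, SE 1.17), at 0.284, 0, 1.12 and 5.55 CPM.

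TPM3, a main source of cytoskeletal tropomyosin, was on the other side. The vehicle counts of 5072 and 5627 stood against 1275 and 778 under CPI-455, or 240 and 258 CPM against 143 and 154 CPM. Both CPI-455 libraries lay below both vehicle libraries. Means were 249 ± 12.4 CPM and 149 ± 7.70 CPM (SD, n = 2 each), with a log2 fold change of 0.74 (SE 0.11), 1.67-fold lower with CPI-455.

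TPM4, the other largely cytoskeletal member, showed no separation of the groups. Counts of 4164 and 5047 in the vehicle libraries stood against 1928 and 947 under CPI-455, or 197 and 231 CPM against 217 and 188 CPM. The ranges overlapped. The log2 fold change was 0.08 (SE 0.13), and its sign turned with upper-quartile scaling (-0.10), with a length and GC trend taken out (-0.20) and without vehicle replicate 2 (-0.01). A gene on the opposite strand, ENSG00000279198, shares 8.79% of the TPM4 exon bases. Its own counts were 37, 45, 170 and 74 in the order vehicle 1, vehicle 2, CPI-455 1 and CPI-455 2.

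**Figure D1:**
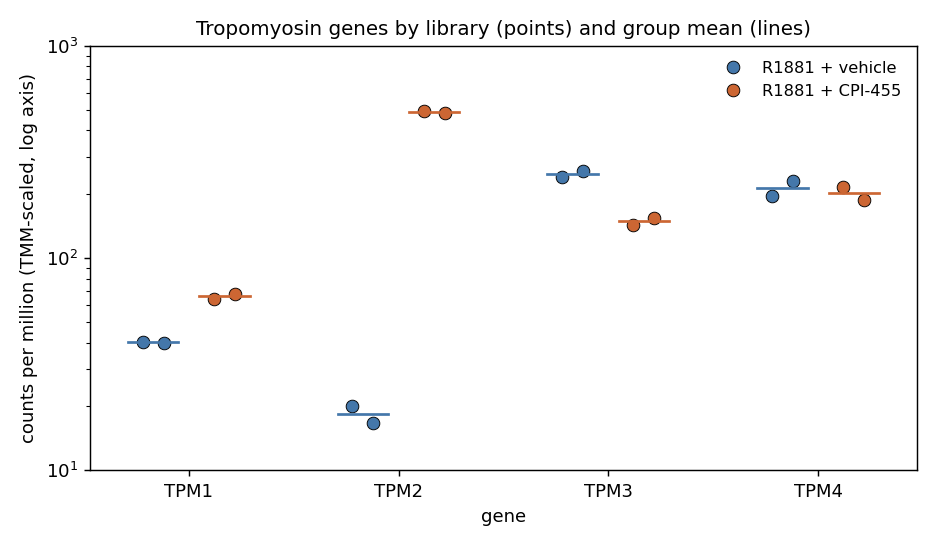
Level of each tropomyosin gene in CPM (log axis) in the 2 vehicle libraries (blue) and the 2 CPI-455 libraries (orange), with a line at each group mean. TPM2 went from 16.7 to 20.1 CPM up to 481 to 492 CPM, TPM1 and TPM3 moved in opposite directions by less than 2-fold, and the TPM4 points of both groups overlap.

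Of the 4 members, only TPM2 passed both the FDR and the 2-fold criterion, against 42.4% of all genes tested. Groups did not overlap for 3 members, against 81.9% of genes tested, so separation of the 2 and 2 libraries was common in these data. These counts rest on the comparison in which the family was noticed and support nothing further. The order of the members by fold change was TPM2, TPM1, TPM4 and TPM3, from the largest difference toward CPI-455 to the largest toward vehicle, under all 17 alternative settings as well. Between TPM3 and TPM2 the log2 fold changes differed by 4.92 to 5.65 over the settings, between TPM1 and TPM2 by 3.56 to 4.14, and between TPM3 and TPM4 by 0.50 to 0.81.

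**Figure D2:**
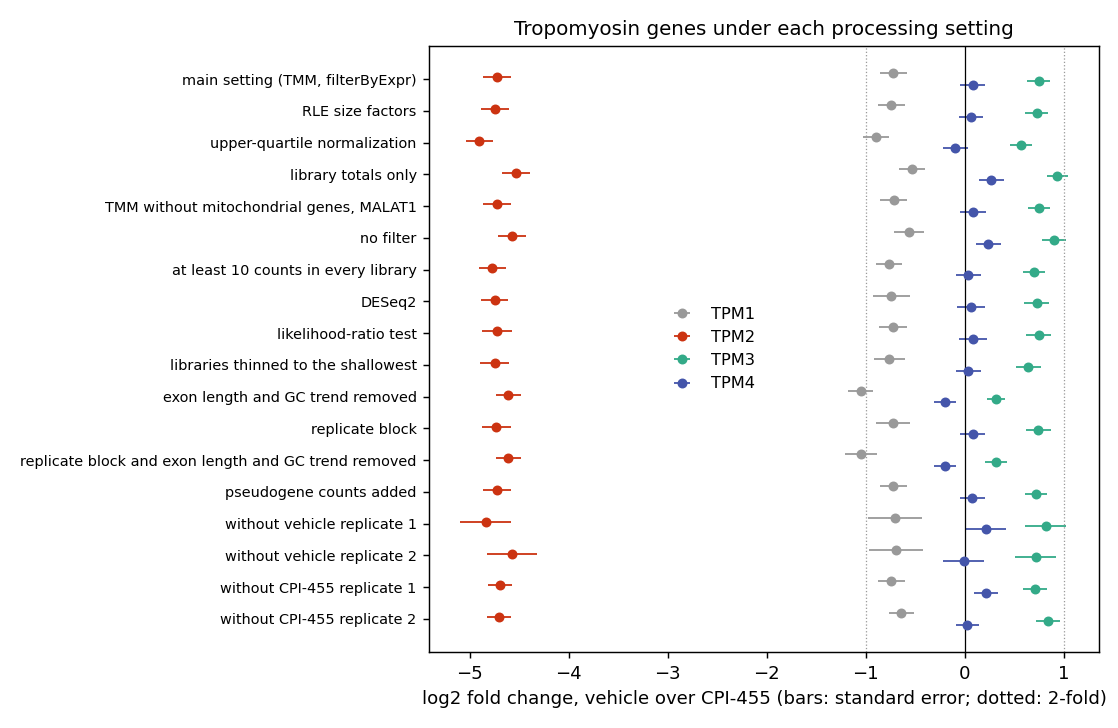
Log2 fold change (vehicle over CPI-455, bars are the standard error) of the 4 genes under the main setting and the 17 alternatives, 1 line per setting, with dotted lines at 2-fold. TPM2 stays between -4.90 and -4.53, TPM1 between -1.05 and -0.53 and TPM3 between 0.31 and 0.93, while TPM4 lies on both sides of 0, from -0.20 to 0.27.

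Exon length and base composition differ among the members, and this touched TPM1, TPM3 and TPM4 more than TPM2. GC content over the exons was 60.7% for TPM2, above that of 88.6% of genes tested, and 46.8%, 44.9% and 50.6% for TPM1, TPM3 and TPM4. With each library's trend on length and GC removed, the log2 fold change was -4.61 for TPM2, -1.05 for TPM1 and 0.31 for TPM3. TPM1 then passed 2-fold. On libraries thinned to the shallowest, the log2 fold change was -4.75 for TPM2, -0.76 for TPM1, 0.64 for TPM3 and 0.04 for TPM4.

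Levels of different genes were compared per kb of exon. With vehicle, TPM3 at 29.7 ± 1.48 CPM per kb and TPM4 at 28.9 ± 3.24 CPM per kb led and did not differ beyond their spread. TPM2 followed at 4.54 ± 0.587 and TPM1 at 3.20 ± 0.00978 CPM per kb. With CPI-455 the order was TPM2 at 120 ± 2.06, TPM4 at 27.3 ± 2.77, TPM3 at 17.7 ± 0.918 and TPM1 at 5.29 ± 0.198 CPM per kb (SD, n = 2 each), with no overlap between neighbours. Among the 17600 genes tested, TPM2 stood at rank 8349 by level per kb with vehicle and at rank 279 with CPI-455. TPM3 moved from rank 1409 to 2786, TPM4 from 1472 to 1765 and TPM1 from 9693 to 7550.

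The family's make-up changed with these levels. As a share of all tropomyosin fragments, TPM2 made up 4.04% (95% Wilson interval 3.68 to 4.43) and 3.06% (2.77 to 3.39) in the vehicle libraries. In the CPI-455 libraries it made up 53.7% (52.6 to 54.8) and 54.0% (52.5 to 55.4), where the intervals cover counting error only. Per kb of exon, the TPM2 share was 6.90% ± 1.31 with vehicle and 70.5% ± 0.327 with CPI-455. TPM3 went from 44.8% ± 0.553 to 10.4% ± 0.765, TPM4 from 43.5% ± 2.18 to 16.0% ± 1.28 and TPM1 from 4.84% ± 0.315 to 3.10% ± 0.183 (SD, n = 2 each). TPM1 was thus higher in level and smaller as a share of the family per kb. Unscaled by length, the fragment share of TPM1 overlapped: its vehicle values were 8.06% and 7.32%, its CPI-455 values 7.01% and 7.62%. None of the 4 shares per kb overlapped between groups. Shares within a library add up to a fixed total, so a larger TPM2 share leaves less for the other members. The TPM4 share fell in this way although its level overlapped between groups. The separations of the 4 shares are therefore not independent of each other.

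**Figure D3:**
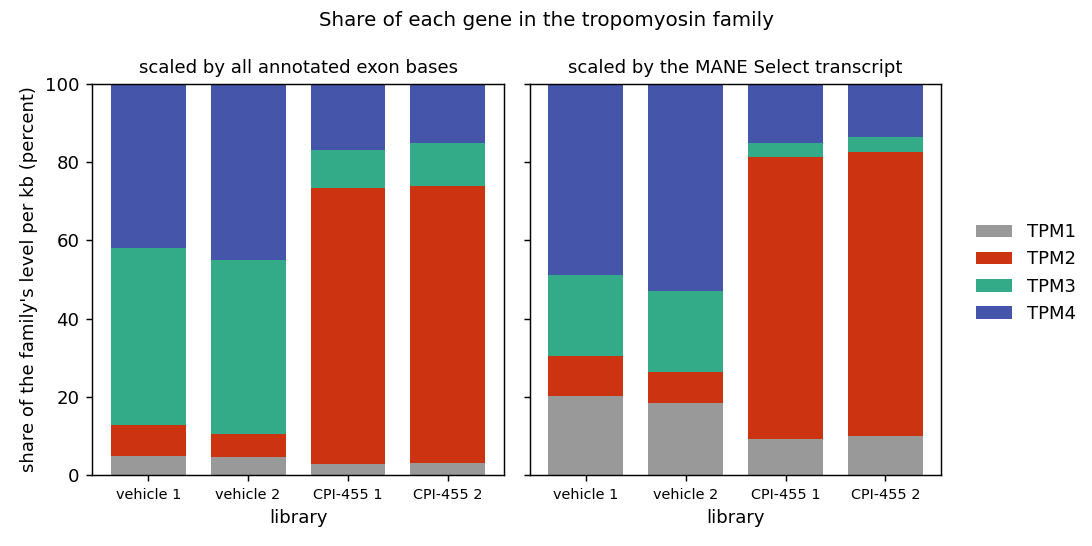
Share of each gene (percent) in the summed level of the family per kb, by library, scaled by all annotated exon bases (left) and by the length of the MANE Select transcript (right). TPM3 and TPM4 fill most of both vehicle bars on the left and TPM2 fills 70.3% and 70.7% of the CPI-455 bars; on the right TPM1 takes a larger share of the vehicle bars and TPM2 still takes 72.0% and 72.5% with CPI-455.

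The exon length counted for TPM1 is long, 12492 bases, beside the length of its MANE Select transcript, so the shares were also computed with that transcript of each gene (1217, 1190, 7064 and 2474 bases for TPM1 to TPM4). That alternative was chosen after the data were seen. With it the vehicle order became TPM4 (50.8%), TPM3 (20.7%), TPM1 (19.4%) and TPM2 (9.13%), and with CPI-455 TPM2 (72.2%), TPM4 (14.4%), TPM1 (9.60%) and TPM3 (3.73%). The place of TPM1 therefore depended on the length used, while TPM2 was last or next to last with vehicle and first with CPI-455 by both. A ratio of 2 genes within a library changes by the same factor whatever the length. TPM2 over TPM3 was 44.1-fold higher with CPI-455, TPM2 over TPM4 27.7-fold and TPM2 over TPM1 16.0-fold, as ratios of the group means.

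The summed level of the family was higher with CPI-455 through TPM2. All 4 genes together measured 497 and 545 CPM with vehicle and 917 and 891 CPM with CPI-455. Without TPM2 the sum was 477 and 529 CPM with vehicle and 425 and 410 CPM with CPI-455. The total was thus 1.73-fold the vehicle mean, and the other members together 0.829-fold of theirs. These sums are not scaled by length. Summed per kb of exon, the total was 2.57-fold the vehicle mean and the other members together 0.815-fold. Bulk counts are shares of the sequenced RNA, so more RNA per cell and a larger part of the cells expressing a gene cannot be told apart, and the counts per gene do not separate its isoforms.

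Tropomyosin pseudogenes held little. Of 9 TPM3 pseudogenes 5 had any fragment, and TPM3P9 carried most of them, with 219, 186, 75 and 39 counts in the order vehicle 1, vehicle 2, CPI-455 1 and CPI-455 2. Its log2 fold change was 0.22 (SE 0.27). TPM3P6 held 6, 1, 6 and 0 counts and TPM4P2 9, 4, 14 and 0, too few to be tested. The values of these near-identical copies are uncertain. Adding the pseudogene counts to their parent left log2 fold changes of 0.72 for TPM3 and 0.08 for TPM4, and no count was found on the 1 pseudogene of TPM2.

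TPM2 is abundant in muscle, and the markers of smooth muscle were examined beside it. They summed to 37.9 to 39.7 CPM in the vehicle libraries and 151 to 174 CPM under CPI-455, of which smoothelin (SMTN) made up nearly all. SMTN rose from 37.6 and 36.1 CPM to 171 and 150 CPM. The defining contractile genes stayed low, since MYH11 averaged 1.58 and 1.32 CPM, CNN1 0.163 and 0.522 CPM, DES 0.186 and 0 CPM and ACTG2 0.0237 and 0 CPM with vehicle and CPI-455. Of 4 striated muscle markers 1, TTN, was above 1 CPM in both groups, and none was called. Of 6 fibroblast markers COL1A1 was above 1 CPM in both groups and was called higher, with summed levels of 4.49 to 5.49 and 10.5 to 10.7 CPM. The 3 basal markers summed to at most 1.24 CPM and the 3 leukocyte markers to at most 0.900 CPM in any library.

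Tropomyosins act with other proteins of the actin filament, and 7 lists of 100 such genes were read from the same analysis, of which 86 genes passed the filter. The lists were chosen with earlier results of these data known, so their counts, medians and p-values serve as a description. Calls were made with edgeR's quasi-likelihood test at FDR 0.05 and 2-fold, and percentages of all genes tested are the background. With CPI-455, 14 of the 86 were called lower (16.3%, against 21.3% of all genes) and 7 higher (8.14%, against 21.0%). Whatever the fold, 55 of the 86 passed the FDR, 36 lower and 19 higher, against 62.6% of all genes. Of all 17600 genes tested, 5767 passed the FDR lower and 5243 higher. Of the 13813 protein-coding genes tested, 5350 passed it lower and 3636 higher. The share of lower genes among the listed genes called was 66.7%. It moved to 40.0% with upper-quartile scaling, 42.9% with the length and GC trend removed, 50.0% on thinned libraries and 81.5% with library totals. Among all genes called it was 50.4%, and among protein-coding genes called 61.0%. The median log2 fold change was 0.25 over the lists, 0.04 over all genes tested and 0.21 over protein-coding genes tested, of which 24.4% were called lower and 15.6% higher. The listed genes are protein-coding, and their median lay near that of protein-coding genes as a whole.

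Of 19 tropomyosin-binding and filament-end genes, 11 entered the test, and their log2 fold changes had a median of 0.60. Caldesmon, CALD1, which binds actin and tropomyosin, had 1693 and 1936 counts in the vehicle libraries against 1901 and 1359 under CPI-455, or 80.2 and 88.7 CPM against 214 and 270 CPM. It rose 2.86-fold (log2 fold change -1.51, SE 0.14, edgeR with Benjamini-Hochberg adjusted p = 1.61e-05), and the groups did not overlap. TMOD3, the tropomodulin that caps filaments in many non-muscle cells, went the other way. It measured 51.3 and 52.7 CPM with vehicle and 23.5 and 32.7 CPM with CPI-455 (log2 fold change 0.91, SE 0.18, edgeR Benjamini-Hochberg adjusted p = 0.00177), below 2-fold. TMOD1, TMOD2, LMOD1 and CNN3 also passed the FDR with fold changes under 2, all lower with CPI-455. Beyond CALD1, the list's calls were TNNI3, higher, and TNNI1, lower, both troponin I genes named after their values were seen. TNNI1 had 20 and 22 counts in the vehicle libraries against none under CPI-455, so it was at least 4.54-fold lower, taking 3 counts over the group as the floor. The skeletal and cardiac genes TNNT2, TNNT3, TNNI2 and TNNC2 were too low to be tested.

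The actin genes, which encode the filament itself, split. The cytoplasmic actin ACTB measured 1249 and 1108 CPM with vehicle and 1113 and 1188 CPM with CPI-455, overlapping (log2 fold change 0.04, SE 0.11, edgeR Benjamini-Hochberg adjusted p = 0.793), and its sign turned in 4 of 16 settings. The other cytoplasmic actin, ACTG1, rose 3.55-fold, from 1076 and 964 CPM to 3745 and 3500 CPM (log2 fold change -1.83, SE 0.11, edgeR Benjamini-Hochberg adjusted p = 1.53e-06). It was the only one of 4 actin genes tested that was called. ACTA2 passed the FDR under 2-fold, lower with CPI-455. Actin genes are near-identical in their coding sequence, so their counts carry some uncertainty.

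Myosin II, the motor that pulls on tropomyosin-coated filaments, changed in both directions by subunit. The non-muscle heavy chains fell, MYH9 from 416 and 473 CPM to 198 and 210 CPM (log2 fold change 1.13, SE 0.12, edgeR Benjamini-Hochberg adjusted p = 3.01e-05) and MYH10 from 401 and 454 CPM to 175 and 208 CPM. The phosphatase catalytic subunit PPP1CB fell 2.63-fold. The phosphatase genes PPP1R12A and PPP1R12B went the other way and passed the FDR under 2-fold, 1.46-fold and 1.93-fold higher with CPI-455. The essential light chain MYL6 rose 2.61-fold, from 142 and 143 CPM to 336 and 412 CPM. MYL6B, MYL12A and MYL12B, further light chains, passed the FDR under 2-fold, all higher with CPI-455. Of 12 genes tested, 3 were lower by both criteria and 1 was higher, and the middle log2 fold change was -0.70. With the length and GC trend removed, MYH10 and PPP1CB no longer reached 2-fold, and with upper-quartile scaling MYH9 and MYH10 did not.

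Genes that take filaments apart or cap them held 2 calls among 14 tested, both lower. TWF1, twinfilin, fell from 49.8 and 53.4 CPM to 16.0 and 27.4 CPM (2.45-fold), and it missed 2-fold without CPI-455 replicate 1 (log2 fold change 0.93) and with the length and GC trend removed (0.93). AVIL, advillin, was named after its values were seen and had 280 and 263 counts with vehicle against 2 and 0 with CPI-455. Cofilin, CFL1, which severs filaments and competes with some tropomyosins, had a log2 fold change of 0.34 (SE 0.11), and CFL2 of 0.17 (SE 0.14). Whatever the fold, 5 genes of the list passed the FDR lower and 1, DSTN, higher, and the list's median was 0.30.

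In the nucleation and elongation list, with 24 genes tested, 4 were called lower and 2 higher. Formins build the unbranched filaments on which many tropomyosins sit. FHOD1 rose 7.77-fold, from 19.0 and 15.6 CPM to 127 and 143 CPM (log2 fold change -2.96, SE 0.15, edgeR Benjamini-Hochberg adjusted p = 8.89e-07), and FMNL1 rose 2.10-fold. DIAPH1 fell 2.62-fold, from 170 and 184 CPM to 67.8 and 67.2 CPM, and DIAPH3 fell 2.02-fold. Of the Arp2/3 complex, which makes branched filaments, ACTR2 fell 3.14-fold and ARPC4 2.37-fold. Other subunits passed the FDR under 2-fold in both directions, ARPC2 and ARPC3 higher with CPI-455 and ACTR3, ARPC5 and ARPC5L lower. Whatever the fold, 10 genes of the list passed the FDR lower and 6 higher. FMNL1 and DIAPH3 were named after their values were seen. Both lay close to the 2-fold limit, with log2 fold changes of -1.07 (SE 0.23) and 1.01 (SE 0.17). Their values under the other settings are not given here. The list's median log2 fold change was 0.04.

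Cross-linking and bundling genes, 18 tested, had 3 calls lower and 1 higher. Filamin C, FLNC, fell 10.9-fold, from 377 and 382 CPM to 41.5 and 26.4 CPM (log2 fold change 3.45, SE 0.19, edgeR Benjamini-Hochberg adjusted p = 1.00e-06). The spectrin partners parted, since SPTBN1 fell 3.54-fold and SPTAN1 rose 2.64-fold. LCP1, L-plastin, named after its values were seen, fell 3.92-fold. Whatever the fold, 9 genes of the list passed the FDR lower and 3 higher, and the list's median was 0.44.

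Serum response factor, SRF, and its myocardin-related coactivators are known regulators of actin and muscle genes. SRF measured 143 and 149 CPM with vehicle and 139 and 95.2 CPM with CPI-455 (log2 fold change 0.31, SE 0.17, edgeR Benjamini-Hochberg adjusted p = 0.131). MRTFA was at 38.9 ± 0.365 and 31.8 ± 0.888 CPM (SD, n = 2 each) and did not pass the test (log2 fold change 0.29, SE 0.15, edgeR Benjamini-Hochberg adjusted p = 0.117). MRTFB fell 2.23-fold, from 57.3 and 56.1 CPM to 27.2 and 23.4 CPM, under 2-fold with upper-quartile scaling and with the length and GC trend removed. MYOCD, the muscle coactivator, was too low to be tested.

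**Figure D4:**
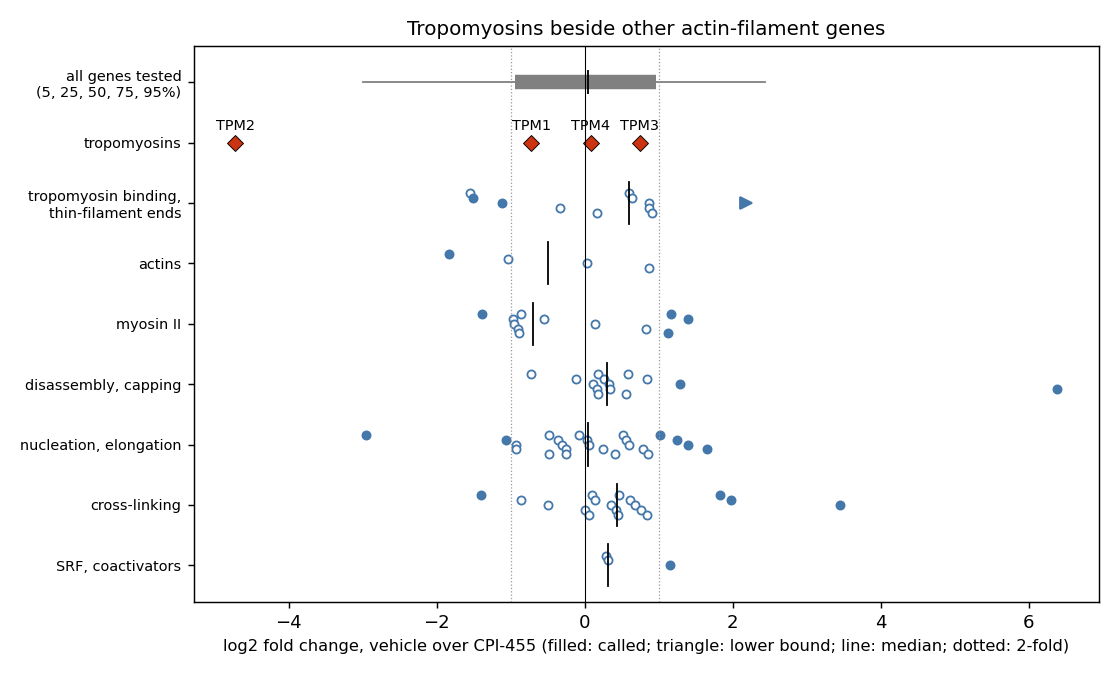
Log2 fold change (vehicle over CPI-455, positive values lower with CPI-455) of the 4 tropomyosins (diamonds) and of the tested genes of 7 actin-filament lists (circles, filled where called, a line at each list median, and a triangle for TNNI1 at its bound), below the 5th to 95th percentile range of all genes tested. The list medians lie between -0.70 and 0.60, and TPM2 at -4.73 lies outside the range of all listed genes on that side.

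Genes with the pattern most like each member over the 4 libraries were found by Euclidean distance between centred log2 CPM values, among protein-coding genes of similar level. For TPM2 these were PGGHG (a collagen-linked sugar hydrolase, distance 0.469), H2BC21 (a histone H2B gene, 0.560) and LPCAT4 (a phospholipid acyltransferase, 0.716), against a median of 4.93 over 4024 candidates. PGGHG counts were 358 and 256 with vehicle against 4717 and 2400 with CPI-455. All genes named here were picked for their nearness, so their likeness to the member and their distances below the median follow from that choice. TPM1 lay nearest to INPP5B, PACSIN3 and FOCAD (0.0362 to 0.0549), TPM3 to SMC2, PLD3 and MAP4 (0.0195 to 0.0284) and TPM4 to STOML2, FKBP8 and OTUD7B (0.0676 to 0.109). The medians over their candidates were 1.11, 0.860 and 0.763.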

How the data were processed

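The deposited files hold raw counts of fragments per gene, 1 file per library. The authors trimmed reads with Trim Galore, used STAR for alignment to GRCh38, and counted with featureCounts v1.5.0-p1 on Ensembl release 83 exons. Per the file headers, counting was per fragment with default settings, which use no strand and leave out fragments on several places or genes. The members and gene lists were chosen with earlier results of these data known. Genes passing filterByExpr (minimum count 10) were fitted in edgeR 4.0.16 (R 4.3.3) with TMM factors and the quasi-likelihood test, with Benjamini-Hochberg adjustment over 17600 genes. Calls needed FDR 0.05 and 2-fold. Named genes were the members, pseudogenes with at least 10 counts, 7 fixed genes, up to 3 called genes per list and direction with mean log2 CPM of at least 4, and the 3 nearest patterns per member. The fit was tested on simulated data. Alternatives used DESeq2 1.42.0, other scalings and filters, thinning, a length and GC trend (mgcv 1.9.3), the replicate block and leaving out libraries. Replicates of a group differed by more than counting noise (chi-square per degree of freedom 5.77 and 8.63). Symbols came from GENCODE 44. One coding stretch and some marker genes are not reported here.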

Additional observations from a re-analysis of the deposited data

How the results depend on the processing

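The directions of TPM1, TPM2 and TPM3 held under all 17 settings. TPM1 passed 2-fold with the length and GC trend removed (-1.05) and with that trend and the replicate block together (-1.05). The log2 fold change of TPM4 turned to -0.10 with upper-quartile scaling, -0.20 with the trend removed, with or without the replicate block, and -0.013 without vehicle replicate 2. Leaving out 1 library gave -0.74 to -0.64 for TPM1, -4.84 to -4.57 for TPM2, 0.71 to 0.84 for TPM3 and -0.013 to 0.22 for TPM4. Labels number the replicates alike in both groups, and the deviations of same-numbered libraries correlated at 0.0400 over genes. With 2 libraries in each group this value cannot decide whether equal numbers mark a shared culture or day. The main fit treated the libraries as unpaired. With the replicate block the values were -0.72, -4.73, 0.74 and 0.08, and 7167 genes were called rather than 7454. Over the genes tested in the main setting the median log2 fold change was 0.04. It was 0.23 with library totals, 0.19 without the filter and -0.14 with upper-quartile scaling, so the sizes of small differences move with the scaling. Over all genes in the fit without the filter the median was 0.41.

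Of listed genes, the 14 called lower became 22 with library totals and 9 with the trend removed, with or without the block. The 7 called higher became 15 with upper-quartile scaling, 12 on thinned libraries, 12 with the trend removed and 13 with trend and block; the cause was not tested. Leaving out 1 library gave 12 to 21 lower and 7 to 11 higher, the latter without CPI-455 replicate 2. ACTB turned to -0.14 with upper-quartile scaling, -0.0096 with 10 counts in every library, -0.089 on thinned libraries and -0.032 without vehicle replicate 1, and leaving out 1 library gave it -0.032 to 0.14. Over the other named genes, 12 values fell below 2-fold or the FDR and 3 rose past them, all without a change of direction.

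Without length scaling, the shares with vehicle were 7.69%, 3.55%, 47.8% and 41.0% for TPM1 to TPM4, and with CPI-455 7.32%, 53.8%, 16.5% and 22.4%. With MANE Select lengths, chosen after the data were seen, they were 19.4%, 9.13%, 20.7% and 50.8%, and 9.60%, 72.2%, 3.73% and 14.4%. Pseudogene counts moved TPM2 with CPI-455 to 70.0% and TPM3 with vehicle to 45.7%, which was 43.8% on thinned libraries. With 2 libraries a group, an exact permutation test of a single value could not reach a p of 0.05, and gene counts do not resolve isoforms.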
